A study of Mus musculus with 12 samples.

Results

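The binding regions described here are the places where LARP1 was found on introns in naive CD4 T cells. A region was taken as intronic if it overlapped, on its own strand, an intron and no exon of any transcript in GENCODE M21 on the mouse build GRCm38, which the files name mm10. Without chromosome Y, 1640 of the 5556 regions in 2 lists met this rule, 1014 of 3189 in control and 626 of 2367 in Rnmt cKO. LARP1 was recovered by enhanced crosslinking immunoprecipitation (eCLIP) from naive CD4 T cells sorted out of the lymph nodes of female mice. Control mice were Rnmt fl/fl CD4cre - and Rnmt cKO mice were Rnmt fl/fl CD4cre +. Both genotypes therefore carried the floxed Rnmt alleles, and Cre driven by CD4 regulatory sequences deletes the gene from the double positive stage of the thymus, before naive T cells form. Each genotype gave 1 LARP1 immunoprecipitation (IP) library with the abcam LARP1 antibody. Differences between the lists therefore had no replicate check. Intervals are 95% Wilson intervals for shares and Newcombe intervals for differences of shares, and the only error they describe is that of counting regions. They take regions as independent, although 29.8% of intronic control and 46.8% of intronic Rnmt cKO regions had a host gene with several. With 1 library a genotype, an interval between the lists that leaves out 0 is no test of genotype. The lists hold no reads, so their depth is unknown.

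LARP1 is an RNA-binding protein of the cytoplasm that recognises the cap and the terminal oligopyrimidine (TOP) tract at the 5′ end of mRNAs that encode ribosomal proteins and factors of translation. RNMT methylates the guanosine of that cap. Introns are copied with the exons and are cut out in the nucleus at the 5′ splice site, which begins the intron, and the 3′ splice site, which ends it. The lists are those of the caller, before the study's later selection of regions by their reads over input and over IgG.

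Each region was made of crosslink sites, bases next to which the cDNAs of the IP ended more often than modelled from the input. The deposited score of a region was the sum of its site scores. Because the score depends on a model fitted to each library, it is given here with its percentile within its own list, where 100 is the top. Some scores recurred. In the control list 280 of the 1014 intronic regions (27.6%, 24.95 to 30.4%) had a score, called recurring here, that was found at least 20 times among the regions of its list, against 10 of 626 (1.60%, 0.870 to 2.92%) in the Rnmt cKO list. All 280 consisted of a single site. The most frequent value, 1.31, stood on 344 control regions, 88 of them intronic.

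Intron sequence could be read where a RefSeq promoter window (GRCm38.p6) or an exon of a GENCODE M21 transcript on the opposite strand covered the bases. The windows below run 5′ to 3′ for 21 bases from the first base of a region, and they are shown because most of the regions with a recurring score that could be read had the same letters there. Of the 280 control regions with a recurring score 8 could be read, and 7 of these (52.9 to 97.8%) held a run of 7 or more bases identical to the reverse complement of the DNA linker that the protocol joins to the cDNA. Among the 734 other intronic control regions 0 of 7 read did so, which allows a share of up to 42.9%. In the Rnmt cKO list the count was 1 of 11 (1.62 to 37.7%). Of 919828 windows of this length, taken from both strands of all RefSeq promoter windows, 0.763% held such a run. The search used the strand of the region, and it was made after these sequences had been seen. The capitals mark the shared run.
linker, reverse complement: acacgacgctcttccgatct
Papolg (chr11:23894227-23894247, minus strand): ACGACGCTCTTCCaaggcccc
1700047G03Rik (chr15:11967045-11967065, plus strand): CTTCCGATCTaacccctatgc
Gm17494 (chr3:122276188-122276208, minus strand): CTTCCGATCTggacttgaaag
Spag16 (chr1:70572960-70572980, plus strand): CTTCCGATCTttgaatttcag
Cul5 (chr9:53667607-53667627, minus strand): TTCCGATCTggggcgagcgcg
AC131712.1 (chr17:80560477-80560497, plus strand): gacccttcTCCGATCTtagct
Arhgef28 (chr13:98171235-98171255, minus strand): ctctgCCGATCTccctcacct

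The shared run began at the first base of the region in Papolg, 1700047G03Rik, Gm17494, Spag16 and Cul5. It was 13 bases long in Papolg, 10 in 1700047G03Rik, Gm17494 and Spag16, and 9 in Cul5. The remaining recurring-score region that could be read, in Ripor2, opened with a run of t. The same letters were not particular to introns. In the control list 20 of 36 exonic regions with a recurring score and 29 of 42 outside genes held a run, as did 32 of 756 exonic regions and 19 of 32 outside genes with other scores. The part of linker sequence in these calls was not tested.

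The next windows show regions without a run. Capitals mark the region itself, and up to 15 bases before its first base and 14 after it are given. The Ccnd3 region was found in both lists, in 1 of the 3 genes with the most intronic regions in control, and the Map7 region lay on a ribosomal protein copy inside an intron. The Ptbp1 window starts at the region, which was the first base of intron 1, so that it opens with the gt of a 5′ splice site.
Ccnd3, control (chr17:47593373-47593402, plus strand): gggagggagggagggTatagcgcccgccag
Ccnd3, Rnmt cKO (chr17:47593372-47593401, plus strand): ggggagggagggaggGTatagcgcccgcca
Map7, control (chr10:20208462-20208488, plus strand): aggtggctgccatctGTTTtgcggcat
Ptbp1, control (chr10:79854722-79854742, plus strand): Gtaagtcctgccgcgcccctc

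Intronic regions made up 31.8% of regions in control (30.2 to 33.4%) and 26.4% in Rnmt cKO (24.7 to 28.3%). They held less of the score than of the regions, 14.1% of the summed control score and 8.87% of the summed Rnmt cKO score. Their median percentile was 34.2 in control and 33.9 in Rnmt cKO. Exonic regions had medians of 57.3 and 55.9, and regions outside genes had medians of 56.8 and 59.6. Intronic regions thus ranked low in both lists. Of the intronic regions 39 (3.85%, 2.83 to 5.21%) reached the top 10% of the control list and 18 (2.88%, 1.83 to 4.50%) that of the Rnmt cKO list. The difference to exonic regions, intronic minus exonic, was -13.8 points (-16.8 to -11.02) in control and -10.2 points (-12.3 to -7.83) in Rnmt cKO. The highest intronic scores, 2159.9 in control and 1678 in Rnmt cKO, were nevertheless close to the highest exonic scores of 2330 and 1982.

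**Figure D1:**
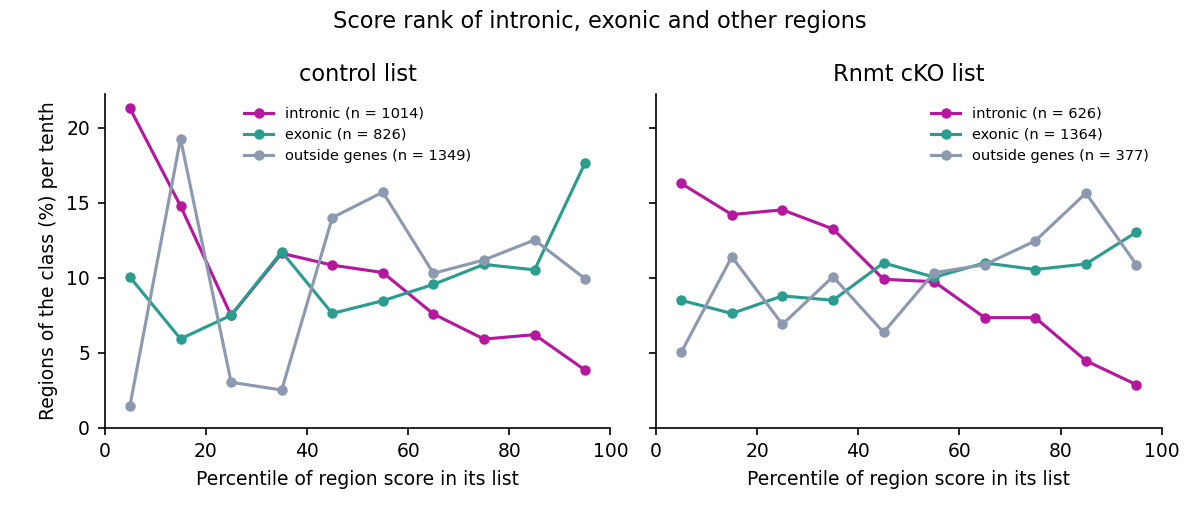
Share of the regions of each class (y axis, %) that fell in each step of 10 percentiles of the score ranking of their list (x axis), for the control list on the left and the Rnmt cKO list on the right; lines join the steps of intronic, exonic and other regions. The lowest step held 21.3% of intronic control regions and the top step 3.85%, whereas the top step held 17.7% of exonic control regions.

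Most intronic regions consisted of a single crosslinked base. In the control list 921 of 1014 had 1 site, 61 had 2, 24 had 3, and 8 had between 4 and 6. In the Rnmt cKO list 429 of 626 had 1 site, 115 had 2, 42 had 3, and the largest had 8. Regions of several sites were thus more frequent in the Rnmt cKO list, at 31.5% (28.0 to 35.2%) against 9.17% (7.55 to 11.1%) in the control list. Both shares were below those of exonic regions, with differences of -19.2 points (-22.7 to -15.6) in control and -18.4 points (-22.8 to -13.8) in Rnmt cKO. Regions of several sites ranked higher, with a median percentile of 79.7 against 31.4 for single sites in control and 56.5 against 24.5 in Rnmt cKO. Since the score of a region sums its sites, a higher rank of such regions is built into the score. Without recurring scores, 12.7% of the remaining 734 intronic control regions had several sites.

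To find which intronic regions recurred between genotypes, an overlap of 1 nt or more with a region of the other list, strand included, was counted. In the control list 147 of 1014 intronic regions (14.5%, 12.5 to 16.8%) overlapped an Rnmt cKO region, where the share over all classes was 26.3%. In the Rnmt cKO list 145 of 626 (23.2%, 20.0 to 26.6%) overlapped a control region, where the share over all classes was 35.4%. Intronic regions were thus shared less often than exonic ones, with differences of -39.9 points (-43.8 to -35.7) in control and -9.83 points (-13.9 to -5.59) in Rnmt cKO. Against regions outside genes the differences were -3.52 points (-6.47 to -0.494) and -41.3 points (-46.9 to -35.2). Without recurring scores the share was 18.3% in control and 21.4% in Rnmt cKO. Of the intronic regions with a recurring score, 3.57% of 280 in control and 60% of 10 in Rnmt cKO were shared. With a minimum of 2 sites in both lists 43 regions of each were shared, 46.2% of 93 in control and 21.8% of 197 in Rnmt cKO. There and in the main count the numbers shared were equal or nearly so. Which list has the larger share thus follows from which holds fewer intronic regions. Shared regions ranked high in the control list, with a median percentile of 74.5 against 30.2 for regions of that list alone. The corresponding medians in Rnmt cKO were 62.7 and 27.0.

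The shared regions formed 145 pairs of intronic regions in 135 genes, and the other 2 control regions overlapped a Rnmt cKO region that also touched an exon. Of the pairs 105 began at the same base and 92 had the same ends. The Rnmt cKO region had more sites in 40 pairs, the control region in 10, and 95 had equal numbers. Both members were in the top 10% of their list in 17 pairs and above the median in 76. Both were below it or on it in 27. The Spearman correlation of the scores was 0.58 over the 145 pairs, which share their position and base composition and are given as a description. Since pairs were formed by overlap and most regions were 1 nt wide, the equal positions largely follow from how pairs were formed.

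**Figure D2:**
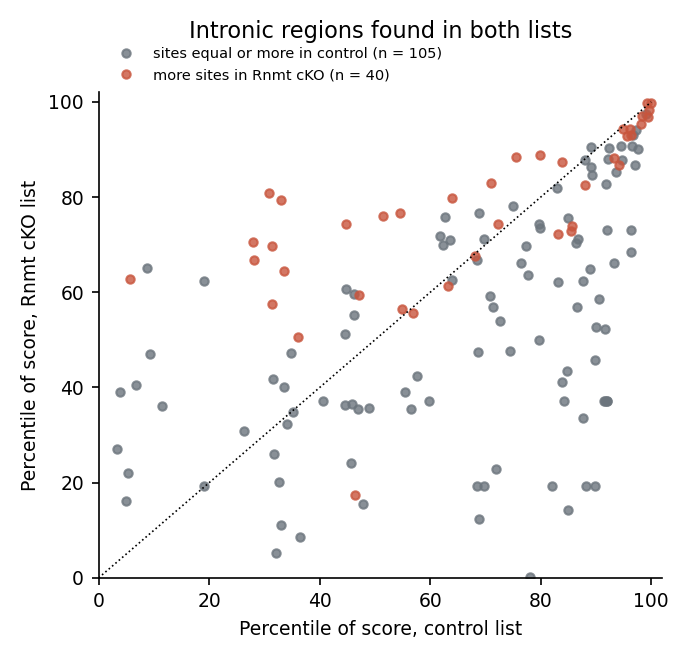
Percentile of the score in the control list (x axis) and in the Rnmt cKO list (y axis) for 145 pairs of overlapping intronic regions, 1 point a pair; the dotted line marks equal percentiles and red points had more sites in the Rnmt cKO list. The points spread widely below the top, and 17 pairs lay above the 90th percentile in both lists.

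The pair with the highest ranks lay in Trpv1, the gene of a heat- and capsaicin-gated ion channel, at chr11:73256369-73256376 on the plus strand, in intron 15 of 15. Its score was 2159.9 from 6 sites in control and 1678 from 8 sites in Rnmt cKO, the highest of all intronic regions in both lists. The lincRNA 5730403I07Rik followed, with 1306 from 5 sites in control and 1584 from 8 sites in Rnmt cKO, 512 to 514 nt from the 5′ splice site of intron 1. Neither is a TOP gene. In Ccnd3, the gene of cyclin D3, which drives the cell cycle out of G1, the region at chr17:47527965-47527970 on the plus strand scored 1859 in control and 1123 in Rnmt cKO. It lay in an intron 1 of 73442 nt, and the nearest splice site was 22679 to 22680 nt away.

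The next pairs were near splice sites as well as far from them. In Dnm3, which encodes a dynamin GTPase, the region was identical in both lists at chr1:162134407-162134412 on the minus strand, 45 nt into intron 15, and scored 1243 and 855. In Cntnap5a, which encodes a neural adhesion protein, it lay 61 nt into intron 13 in control and 60 nt in Rnmt cKO, with scores of 1395 and 632. The Mtus1 region, in intron 1 of a microtubule-binding protein gene, scored 932 and 706. These 3 pairs thus scored higher in the control list, but a difference of scores between lists has no scale. The Rnf182 region, in the gene of a ubiquitin ligase, lay 396 nt before the 3′ splice site and scored 750.3 and 351. In the lincRNA Gm29478 the scores were 231 and 228. All 8 pairs were above the 94th percentile in both lists.

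Regions of a single list ranked lower. The highest found in the control list alone, each of 1 site, were in the lincRNA Gm30228 with a score of 274, in Trappc9, a gene of a vesicle trafficking complex, with 236, in 4930438A08Rik with 179.6 and in Tsga10 with 155. These were at the 93rd to 96th percentile. Those of Rnmt cKO alone reached the 82nd to 87th percentile. They lay in Ogt, which encodes the O-GlcNAc transferase, with a score of 71.5 from 2 sites, in H2-K1, a class I histocompatibility gene, with 57.4 from 6 sites, in Ctse, which encodes cathepsin E, with 48.4 from 4 sites, and in Pced1b with 47.6 from 3 sites. The 4 control regions named were thus single bases, and the 4 of the Rnmt cKO list had several sites. Among all intronic regions of a single list, 4.84% of 867 in control and 28.1% of 481 in Rnmt cKO had several sites.

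The introns were numbered in the best annotated transcript of the host gene that had an intron at the region. Intron 1 held 361 control regions (35.6%, 32.7 to 38.6%) and 192 Rnmt cKO regions (30.7%, 27.2 to 34.4%). By bases, intron 1 made up 26.6% of the introns of the control host genes and 27.4% of those of the Rnmt cKO host genes. The control interval therefore lay above the share of bases, and the Rnmt cKO interval reached down to 27.2%, on both sides of it. The shares of bases used 1 transcript for each gene, so that regions and bases can rest on different transcripts. Rnmt cKO minus control was -4.93 points (-9.53 to -0.221). It rests on the numbering, since 50.8% of control and 48.4% of Rnmt cKO regions were in the intron 1 of at least 1 transcript. Intron 4 or a later one held 40.04% and 44.6%.

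Intronic control regions lay in longer introns. The median intron length was 17820 nt in control and 7860 nt in Rnmt cKO. Introns of 10 to 100 kb held 48.9% of control and 38.3% of Rnmt cKO regions, and introns of 100 kb or more held 11.05% and 4.47%. Introns of 1 to 10 kb held 35.8% of control regions and 50.8% of Rnmt cKO regions, a difference of 15.0 points (10.1 to 19.9 points). The host genes differed alike, with a median length of 77.9 kb in control and 49.2 kb in Rnmt cKO. Together the introns of the hosts covered 135.6 Mb and 42.4 Mb. Within their intron the regions had a median position 45.2% of the way from the 5′ splice site in control and 44.9% in Rnmt cKO.

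Although most were deep in the intron, regions were found beside splice sites more often than intron bases are. An annotated splice site lay within 100 nt of 86 control regions (8.48%, 6.92 to 10.4%), against 1.76% of the intron bases of their host genes. In the Rnmt cKO list 61 regions (9.74%, 7.66 to 12.3%) lay as near, against 2.57% of bases. Within 50 nt the shares were 6.11% and 5.27%, against 0.899% and 1.33% of bases. These excesses were present in both lists. The base shares pool the introns of all hosts, so that long introns weigh most in them. Regions within 100 nt lay in shorter introns than the rest, with median lengths of 1974.5 against 19626.5 nt in control. In Rnmt cKO the medians were 2226 and 8797 nt. The part of intron length in these excesses was not tested. The nearer site was a 5′ splice site for 44 of the 86 control and 35 of the 61 Rnmt cKO regions. Without recurring scores, 10.1% of the control regions lay within 100 nt, and of those with a recurring score 4.29% did. Within 1000 nt the lists differed, at 32.9% for control and 47.9% for Rnmt cKO (difference 15.0 points, 10.1 to 19.8 points), and their introns differed in length as given above. The part of intron length in this difference was not tested.

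**Figure D3:**
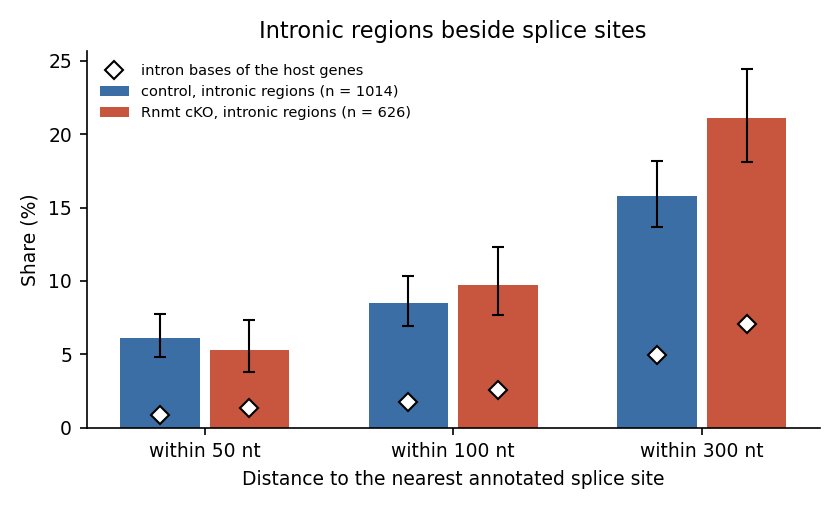
Share (y axis, %) of the intronic regions of each list within 50, 100 and 300 nt of an annotated splice site (x axis), as bars with 95% Wilson intervals, and the same share of the intron bases of their host genes as diamonds. All 6 bars stood above their diamond, for example 15.8% of control regions against 4.98% of bases within 300 nt.

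Some regions sat on the edge of an intron. In the control list 13 regions were the first base of an intron and 5 the last base, and in the Rnmt cKO list 7 were the first base and 1 the last. All 26 were 1 nt wide. The caller places a site 1 nt before the start of a read, so that a read that begins with the first base of an exon marks the last base of the intron before it. The regions on the last base with the highest scores were in genes of the translation machinery. Rpl13a, for a protein of the large ribosomal subunit, scored 137 in the control list (intron 2 of 221 nt, chr7:45127275 on the minus strand), at a base that the gene Gm45713 also spans. Eef1a1, for the elongation factor that brings tRNAs to the ribosome, scored 28.1 (chr9:78478859, minus strand). Rps9, for a protein of the small subunit, scored 18.8 in control and 13.0 in Rnmt cKO at the same base (chr7:3704645, plus strand). The control regions in Rpl13a and Eef1a1 overlapped Rnmt cKO regions that reached into an exon.

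On the first base of an intron, the highest scores were 19.8 in Ablim1, an actin-binding protein gene, in control and 17.1 in Dnm2, which encodes a dynamin, in Rnmt cKO. Map4k2, a kinase gene, followed in the Rnmt cKO list with 8.88 and Midn with 5.72. Tcf7 was the only gene with such a region in both lists, with scores of 18.6 in control and 1.00 in Rnmt cKO at the same base of intron 9. Lck and Fyb, genes of T cell receptor signalling, had one in the control list, and Ikzf1, a lymphoid transcription factor gene, had one in the Rnmt cKO list. A single shared region among 13 and 7 is few to set against the 14.5% and 23.2% of all intronic regions that were shared.

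The 1014 control regions lay in 825 host genes and the 626 Rnmt cKO regions in 424. The lists had 215 host genes in common, which were 26.1% of the control hosts and 50.7% of the Rnmt cKO hosts. Protein-coding genes were the hosts of 90.6% and 94.6% of the regions, and lincRNAs of 4.93% and 3.19%. Of the control hosts 56 (6.79%) also had an exonic region, as did 92 (21.7%) of the Rnmt cKO hosts. The lists held 826 exonic regions in control and 1364 in Rnmt cKO. The share of all genes with an exonic region is not given here, so these values are not a trait of the hosts. Several regions were found in 113 control hosts, which held 302 regions (29.8%), and in 91 Rnmt cKO hosts, which held 293 (46.8%). With a minimum of 2 sites a region, 0 control hosts and 23 Rnmt cKO hosts had several. Among the hosts alone, the number of regions was hardly related to the intron length of the gene. The Spearman correlation was 0.075 in control and -0.074 in Rnmt cKO, given as descriptions. Genes without a region were left out, and 712 of 825 control hosts and 333 of 424 Rnmt cKO hosts held 1 region. The correlations thus cannot show whether intron length matters for holding a region.

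**Figure D4:**
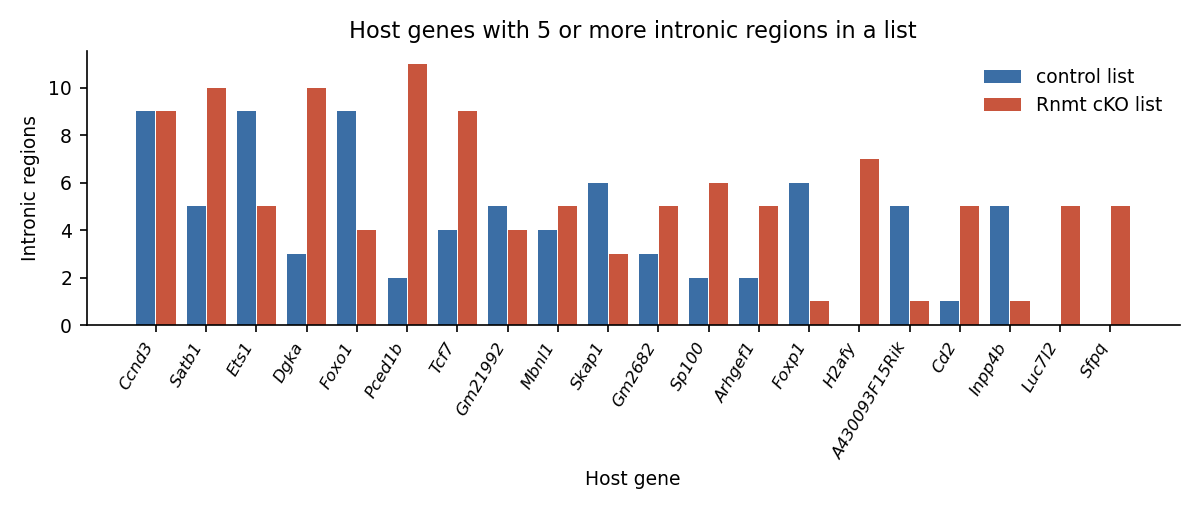
Number of intronic regions (y axis) in the control and Rnmt cKO lists for the 20 host genes (x axis) with 5 or more in a list. Ccnd3 had 9 in both, Pced1b had 2 in control and 11 in Rnmt cKO, and H2afy, Luc7l2 and Sfpq had none in the control list.

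The genes with the most intronic regions in the control list were Ccnd3, Ets1 and Foxo1, with 9 each, followed by Foxp1 and Skap1 with 6 each. In the Rnmt cKO list they were Pced1b with 11, Satb1 and Dgka with 10 each, and Tcf7 and Ccnd3 with 9 each. Ets1, Foxo1, Foxp1, Satb1 and Tcf7 encode transcription factors of T cells, Skap1 encodes an adaptor of T cell receptor signalling, and Dgka encodes a kinase that removes the second messenger diacylglycerol. H2afy, a histone variant gene, had 7 regions in Rnmt cKO and none in control, the most of any gene found in that list alone; it was singled out after its values were seen.

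In Ccnd3 the regions of both lists lay in introns 1 and 2, with 6 of 9 control regions and 3 of 9 Rnmt cKO regions in intron 1. Of these, 3 overlapped between the lists. Beside the strong region described above, the shared region shown at the start scored 21.8 in control and 27.9 in Rnmt cKO. It lay 221 nt before the 3′ splice site of intron 2. A start of Ccnd3 annotated in RefSeq on the same strand followed 79 nt after it in control and 80 nt in Rnmt cKO. The remaining shared region, at chr17:47583308, scored 11.4 and 5.42. The lowest Ccnd3 regions scored 0.0386 and 0.175. A single region thus stood far above the rest of the gene in both lists.

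In Pced1b, 10 of the 11 Rnmt cKO regions lay in intron 5, the last one, of 9878 nt, and 6 of the 11 had several sites. Both control regions were there as well. At 940 to 944 nt into that intron the score was 19.8 in control and 49.3 in Rnmt cKO, and at 3317 nt it was 25.98 and 21.8. In Satb1 the 5 control regions lay in 3 introns and 3 of them were shared. The highest, at chr17:51752603 on the minus strand in intron 9, scored 44.9 in control and 30.5 in Rnmt cKO. In the Rnmt cKO list the highest Satb1 region was another shared one, at chr17:51744798-51744808, with 31.1 against 13.2 in control. The highest score of Satb1 and of Pced1b thus came from a shared region in each list, but not from the same one.

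Dgka had the densest regions of these genes, with 5.01 per 10 kb of intron in the Rnmt cKO list over 7 introns, against 1.503 in control. Its shared region, 470 nt into intron 9, scored 18.6 in control and 32.6 in Rnmt cKO. Tcf7 had 3.51 per 10 kb in the Rnmt cKO list and 1.56 in the control list, and 2 pairs. Of these the region in intron 2 scored 2.01 in the control list from 1 site and 18.9 in the Rnmt cKO list from 3 sites. Ets1, Foxp1 and Skap1 had no shared region and Foxo1 had 1. Their highest scores were low, 16.3 in Ets1, 12.3 in Foxp1, 8.10 in Foxo1 and 4.80 in Skap1 in the control list.

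**Figure D5:**
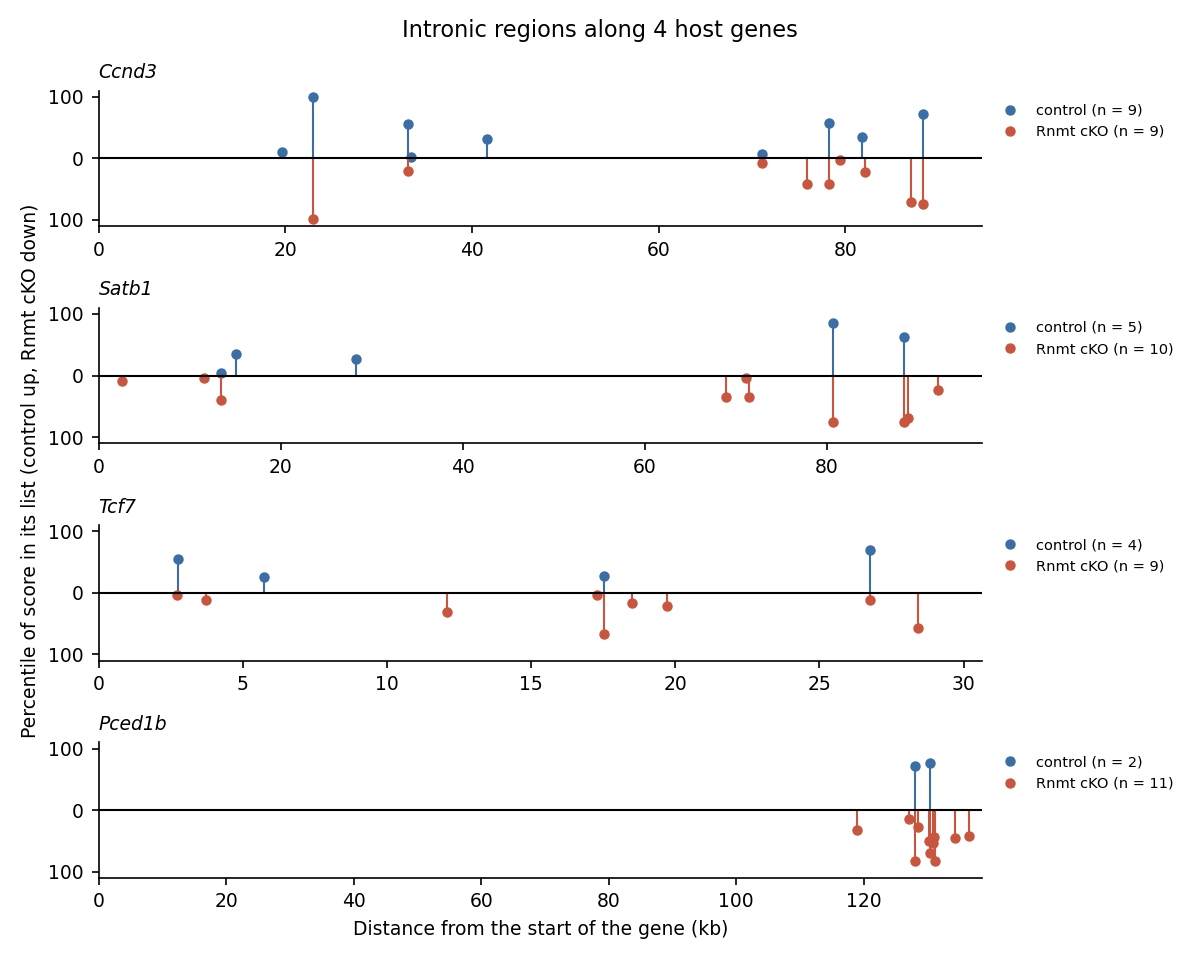
Intronic regions of Ccnd3, Satb1, Tcf7 and Pced1b by distance from the start of the gene (x axis, kb) and percentile of the score in their list (y axis), with the control list above the line and the Rnmt cKO list below it; each point is 1 region. The strong Ccnd3 region stands at the top of both lists, and all 13 Pced1b regions lie toward the end of the gene.

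To set these hosts beside known groups of genes, the number of genes of each list with an intronic region was counted. Of all protein-coding genes with an intron, 3.59% held an intronic control region and 1.94% an intronic Rnmt cKO region. Of 84 cytosolic ribosomal protein genes with an intron, 2 were control hosts (Rpl13a and Rps9) and 1 was an Rnmt cKO host (Rps9), whereas 78 and 80 had an exonic region. All 3 regions were the edge regions described above, and introns of these genes are short, with a median total of 1.11 kb. Of 23 other TOP genes, 2 were hosts in both lists, and all 23 had an exonic region. Eef1a1 and Eif3a were the control hosts, and Eif3a and Hnrnpa1 the Rnmt cKO hosts. The Eif3a regions, in a subunit gene of initiation factor eIF3, scored 1.01 in control and 2.15 in Rnmt cKO and lay in different introns. The Hnrnpa1 region scored 15.2. In both groups far more genes had an exonic than an intronic region.

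Of 16 genes of the cap and LARP1 pathway, Eif4g1 and Ssb were control hosts and Eif4g1 was a Rnmt cKO host. This was 12.5% and 6.25% of a small list, beside 3.59% and 1.94% of all protein-coding genes with an intron. Eif4g1 encodes the scaffold of the cap-binding complex eIF4F, and its shared region in intron 31 of 31 scored 5.35 from 2 sites in control and 28.3 from 4 sites in Rnmt cKO. A further control region in Eif4g1 scored 1.24. Ssb, which encodes the La protein, had a region with a score of 0.0210, near the bottom of the control list. Rnmt, Ramac, which encodes the RNMT cofactor RAM, and Larp1 had no intronic region in either list, so that introns gave no check of the deletion.

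Of 30 T cell genes, 14 (46.7%) held 54 control regions and 16 (53.3%) held 51 Rnmt cKO regions, where the background of all protein-coding genes was 3.59% and 1.94%. Their introns were long, with a median total of 41.6 kb, and the background was not matched for intron length. The list was chosen with earlier results of these data known and includes hosts with the most regions, such as Satb1, Ets1, Foxo1 and Tcf7. The shares are therefore given as a description. Of 11 markers of other blood cells, among them Cd79a, Lyz2 and Cd8a, 0 had an intronic or exonic region in either list. Of the T cell genes 7 had an exonic region in control and 8 in Rnmt cKO. Cd4 and Cd3d, which define the cells, had one in both lists, whereas Cd3e and Cd3g, equally defining, had no exonic or intronic region in either, and the lists thus bear only in part on the labelled cell type. Satb1 had 5 control and 10 Rnmt cKO regions, Ets1 9 and 5, Foxo1 9 and 4, Tcf7 4 and 9, and Lef1, the partner factor of Tcf7, 4 and 2. Cd4 had 4 in Rnmt cKO and none in control, the highest with a score of 27.0 in intron 1. Only the Rnmt cKO mice carried the Cre transgene with CD4 regulatory sequences. The part of that transgene in the Cd4 regions was not tested. Klf2, a factor of quiescent T cells with 0.777 kb of intron, had 1 control region and 2 Rnmt cKO regions, the highest with 25.6 at 24 nt from a splice site. Of the T cell gene regions 8 of 54 and 8 of 51 were shared, beside 14.5% and 23.2% of all intronic regions. The level of the host RNA was not measured in these files, and its part in the number of regions was not tested.

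Of 40 splicing regulator genes with an intron, 9 were control hosts with 16 regions and 6 were Rnmt cKO hosts with 12 regions. This was 22.5% and 15% of the genes, beside 3.59% and 1.94% of all protein-coding genes with an intron. That background was not matched for intron length. The median percentile of the regions in splicing regulators was 33.5 in control and 20.1 in Rnmt cKO, no higher than that of all intronic regions. The highest were in Celf2 with 22.3 in control and in Mbnl1 with 20.7 in Rnmt cKO, and both encode splicing factors. The single shared region, in Hnrnpu, scored 6.37 and 13.5. Of 322 genes that hold a snoRNA, 16 were control hosts and 8 were Rnmt cKO hosts. This was 4.97% and 2.48%, near the share of all protein-coding genes. The highest of them, in Fars2, a mitochondrial tRNA synthetase gene, scored 324 in control and 219 in Rnmt cKO, at the 96th and 94th percentile, and that in Nbea scored 127 and 81.2.

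A few intronic regions lay on processed copies of other genes. Within 150 nt of an annotated pseudogene or of the ribosomal protein copy Rpl32l on GRCm38 were 10 control and 6 Rnmt cKO regions, 8 and 5 of them inside it. All 6 Rnmt cKO regions of this kind overlapped a control region. In intron 1 of Map7 the region lay 38 to 39 nt after the annotated start of Rpl32l and scored 30.4 from 4 sites in control and 8.11 from 3 sites in Rnmt cKO. In Tecpr2 it lay 1 to 3 nt after the start of Rps19-ps6, a copy of a ribosomal protein gene, and scored 17.5 and 20.1. In Acadl it lay 0 to 1 nt after the start of Gm15793, with 8.72 and 32.2. In Gm9750 it lay 38 nt after the start of Gm6252, with 23.6 and 35.3, and in Btbd9 it lay 128 nt after the start of Gm6402, with 2.86 and 42.9. In these 5 genes the start in GENCODE M21 was later, so that no exon covered the region and it was taken as intronic. Others lay elsewhere. The control region in Rrm2b lay 1143 nt after the start of Gm3362, whose length is 1201 nt, and the regions in M1ap and Apol7e lay before the start of a copy that both annotations place at the same base. Reads can be placed on a copy or on its parent gene, and the origin of these regions is uncertain.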

How the data were processed

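The 2 lists of binding regions came from the LARP1 IP libraries of control and Rnmt cKO mice. The authors extracted the 10 nt barcode of each read (UMI-tools), trimmed adapters (cutadapt), aligned to mm10 with STAR 2.5.2b, removed duplicates by barcode, dropped secondary and low-quality alignments (SAMtools) and called regions with PureCLIP against the size-matched input, joining sites within 30 nt. The deposited values are scores: the score of each site and, for a region, their sum. Here each region was classed with all 55450 genes of GENCODE M21 (Python 3.11.15, numpy 2.4.6, scipy 1.17.1, statsmodels 0.14.6, matplotlib 3.10.9). The host was a protein-coding gene before others, then the shortest. Its intron came from the APPRIS principal, CCDS, basic or longest transcript, in that order, among those with an intron at the region. A splice-site distance of 1 is the first or last base of an intron of any transcript. The code was tested on simulated regions.

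No test was made between genotypes, since each was 1 library. Of the 12 libraries of the series, 6 were preliminary, and these and the libraries of IgG and input were not analysed here. Chromosome Y was left out. Shares have 95% Wilson intervals and differences of shares Newcombe intervals. The named regions were the 8 pairs with the highest lower percentile, the 4 highest regions of each list alone, the 4 nearest to a splice site in each list (ties by score), the 5 hosts with the most regions, and up to 8 regions of each gene list. The regions shown by sequence, the further regions on intron edges, those on pseudogenes, and Lef1, Lck, Fyb and H2afy were named after their values were seen, and the sequences planned for the named regions could be read only in part. Members and lists were chosen with earlier results of these data known. Alternatives were a minimum of 2 sites, scores above the list's median, no recurring scores, basic transcripts, other rules of sharing and of the intron, and 50 or 300 nt in place of 100. Sequences came from RefSeq promoter windows (GRCm38.p6) and GENCODE M21 transcripts, which were identical in all 315 windows covered by both. One gene of the list of other blood cells is not reported here.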

Additional observations from a re-analysis of the deposited data

Results flagged for a closer look

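Chromosome Y was left out of every count, and the mice were female. The lists nevertheless held intronic regions on it, 6 in control and 12 in Rnmt cKO, above a flag set at 3. They lay in Gm47283 and Uba1y, with scores from 2.86 to 153 in control and from 0.318 to 59.3 in Rnmt cKO. The study also removed a few regions on this chromosome. The flag makes no allowance for reads of other chromosomes that are placed on chromosome Y. The origin of these regions was not tested.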

How the results depend on the processing

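Of 66 values recomputed under an alternative, 39 stayed within their interval (counts within 1.5 times) and 27 moved. With a minimum of 2 sites 93 control and 197 Rnmt cKO regions were intronic (16.8% and 18.4% of their list), 46.2% of the control regions were shared, and 0 control and 23 Rnmt cKO hosts had several, because most regions have 1 site. Above the median score of the list 313 and 199 were intronic (21.2% and 16.8%), 24.6% and 37.7% were shared, 24.9% and 61.3% had several sites, and 10 and 25 hosts had several. Without recurring scores 35.0% of control regions were intronic, 18.3% of these were shared and 12.7% had several sites. Basic transcripts gave 31.1% intronic in the Rnmt cKO list. Intron 1 of any transcript gave 50.8% and 48.4%. Within 50 nt of a splice site lay 6.11% and 5.27%, and within 300 nt 15.8% and 21.1%. The cause of these moves beyond the construction of each alternative was not tested. Leaving out a replicate was not possible with 1 library a genotype. No paired analysis was possible because no result comes from a test and each genotype has 1 library. Reads, and so depth, were not analysed here.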
